A study of Mus musculus with 72 samples.

Results

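The Hnrnp, Srsf and Rbm genes are 3 families of mouse genes for proteins that bind RNA and in many cases direct splicing. They were taken from the expression tables of the suprachiasmatic nucleus (SCN) as every symbol beginning with Hnrnp, with Srsf and a digit, or with Rbm and a digit, except Rbm3, and number 71 of 24883 rows (20 Hnrnp, 11 Srsf and 40 Rbm rows, with Rbm31y in 2 rows). These families were chosen from results on daily rhythms in the same libraries, so the counts of oscillating members given here describe them and test nothing.

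Splicing removes introns from a pre-mRNA. SR proteins (the Srsf genes) mostly bind exon enhancers and recruit the spliceosome, hnRNPs (the Hnrnp genes) coat the transcript and often act as silencers, and the RBM genes are a mixed group that share an RNA recognition motif and include spliceosome subunits, exon junction factors and regulators of single exons. SR proteins are phosphorylated by CLK and SRPK kinases, and many SR and hnRNP genes limit their own level through exons that send their mRNA to nonsense-mediated decay. In the SCN, the hypothalamic clock that times behaviour and body temperature, cold-inducible RNA-binding proteins and heat shock genes are known to follow daily temperature.

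RNA-seq of dissected SCN was made from adult male C57BL/6 mice with no transgene, fed a control diet (Ctrl) or a diet depleted of tryptophan (-Trp). The series description calls the control normal chow, while the methods of the study name a control diet matched for nitrogen. The mice were kept in a light-dark cycle (LD) or in constant darkness (DD), and 3 mice per group were taken at 0, 4, 8, 12, 16 and 20 h of zeitgeber time (ZT, in LD, lights off from ZT12) or circadian time (CT, in DD). Each of the 4 groups (Ctrl and -Trp in LD, Ctrl and -Trp in DD) holds 18 libraries, 72 in all. Values are FPKM, mapped fragments scaled by transcript length and by library size, and in tissue RNA fewer cells of a type and less RNA per cell cannot be told apart.

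The group and time of each library were placed by the order of the columns in a supplementary table of the study, not by the column names of the deposited tables. In every gene compared, the 36 control columns of that table equalled deposited columns of another name (relative tolerance 0.0001), over 1915 to 1939 genes a column for Ctrl LD but only 124 to 134 for Ctrl DD. The 36 -Trp columns were placed by continuing the same shift. No value shows the placing of the -Trp columns directly. With these groups all 36 LD libraries had a sum of FPKM between 403066 and 524705, and 35 of the 36 DD libraries had one between 317417 and 353587, so that light schedule and this difference cannot be told apart. Dbp, a clock output gene, had its highest mean at 12 h in Ctrl LD (36.2 FPKM) and in -Trp LD (36.9 FPKM), against 16.2 FPKM at 20 h and 18.8 FPKM at 20 h, and followed no single wave in DD. All 8 markers of SCN neurons passed 0.5 FPKM in each group, but their summed level ranged from 43.0 to 1032 FPKM over the libraries. The library of replicate 1 at CT12 in Ctrl DD (43.0 FPKM) and that of replicate 3 at ZT20 in -Trp LD (56.9 FPKM) had the lowest sums, and that of replicate 2 at CT4 in -Trp DD stood apart by its FPKM sum of 411944. The counts of rhythmic members in DD and a few results of single genes are also given without 1 of these 3 libraries. For other results only the range of counts over leaving out each library is given. With the columns as named, most counts of members below differ, and those counts are given with them. By name, Ctrl LD held 12 libraries with an FPKM sum over 400000 and 6 under it, and Ctrl DD 6 and 12. The numbers were 1 and 17 in -Trp LD and 18 and 0 in -Trp DD. Shares over all genes are not given for the counts by name. Those counts show only that the results depend on the placing.

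The promoters of 6 members with high and low times in LD are shown first, since the rhythm of these genes carries most of what follows. Srsf5, Hnrnpdl and Rbm45 had their fitted peak by day and Hnrnpc, Hnrnpm and Rbm28 late at night or near lights on. Each sequence holds the 160 bases before the RefSeq start site in GRCm38.p6 (the mm10 assembly), 5′ to 3′ on the strand of the gene, and capitals mark a heat shock element.
Srsf5 (chr12:80945339-80945498, plus strand): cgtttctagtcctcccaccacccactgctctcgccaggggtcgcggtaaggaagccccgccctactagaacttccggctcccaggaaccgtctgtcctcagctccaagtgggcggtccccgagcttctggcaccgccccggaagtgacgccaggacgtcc
Hnrnpdl (chr5:100039223-100039382, minus strand): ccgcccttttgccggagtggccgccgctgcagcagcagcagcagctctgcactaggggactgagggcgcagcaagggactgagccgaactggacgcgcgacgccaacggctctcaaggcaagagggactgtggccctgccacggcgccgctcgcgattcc
Rbm45 (chr2:76369824-76369983, plus strand): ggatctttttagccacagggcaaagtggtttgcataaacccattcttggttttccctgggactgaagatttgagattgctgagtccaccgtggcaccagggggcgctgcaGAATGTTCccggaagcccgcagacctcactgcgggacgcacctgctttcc
Hnrnpc (chr14:52104022-52104181, minus strand): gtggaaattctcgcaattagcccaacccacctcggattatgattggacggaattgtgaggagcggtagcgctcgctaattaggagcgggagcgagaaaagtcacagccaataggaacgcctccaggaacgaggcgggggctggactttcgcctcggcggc
Hnrnpm (chr17:33685459-33685618, minus strand): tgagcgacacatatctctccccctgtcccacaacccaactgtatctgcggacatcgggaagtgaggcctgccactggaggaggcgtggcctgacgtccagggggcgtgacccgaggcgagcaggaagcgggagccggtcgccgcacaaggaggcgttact
Rbm28 (chr6:29164725-29164884, minus strand): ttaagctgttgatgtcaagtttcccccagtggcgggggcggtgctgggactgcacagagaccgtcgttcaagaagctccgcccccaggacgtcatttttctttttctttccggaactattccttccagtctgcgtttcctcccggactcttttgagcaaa
Among the 61 member genes with a promoter entry (250 bases before to 50 after the start), 10 (16.4%) held the E-box CACGTG, to which the clock factors CLOCK and BMAL1 bind, against 8.09% of all 27025 genes with an entry. The heat shock element GAANNTTC was in 5 (8.2%) against 9.04%, and the D-box TTATGTAA and the CRE TGACGTCA were in 0 members against 1.11% and 2.03%. All 4 motifs were searched on both strands, a gene with several promoter entries was counted once if any of them held the motif, and no motif contains another. Of the 6 genes shown, Rbm45 held the heat shock element GAATGTTC and Hnrnpm an E-box that begins 14 bases after its start. In the first entry of each gene, the median was 25 CpG over members against 7 over all genes, with a GC content of 62% against 52.7%.

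Most members were well expressed. Of the 71, 63 reached 0.5 FPKM as the mean of the 72 libraries (20 Hnrnp, 11 Srsf and 32 Rbm genes), and 66 were above 0 in every library. The 8 below the floor were Rbm20 (0.487 FPKM), a splicing factor of muscle, Rbm47 (0.0997 FPKM), Rbm46, Rbm44, both rows of Rbm31y, and the antisense genes Rbm3os and Rbm46os. By family, the median of the members' means was 45.4 FPKM for Hnrnp, 28.7 FPKM for Srsf and 9.48 FPKM for the Rbm genes that passed.

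The highest Hnrnp genes were Hnrnpa2b1 (171 FPKM, chr6:51460932-51469894), which binds RNA for transport as well as splicing, Hnrnpk (158 FPKM), a poly(C) binding protein, and Hnrnph1 (99.5 FPKM), which binds G-rich elements. Of the Srsf genes, Srsf5 (146 FPKM, chr12:80945504-80950507) stood well above Srsf3 (59.4 FPKM), which also acts in mRNA export, and Srsf2 (47.2 FPKM), an SR protein that stays in the nucleus. The highest Rbm genes were Rbm39 (60.7 FPKM), an SR-like partner of U2AF, Rbm5 (38.5 FPKM), a regulator of exons of cell death genes, and Rbm42 (32.6 FPKM). Hnrnpa2b1, Hnrnpk and Srsf5 were among the 500 genes with the highest mean FPKM. At the low end of those that passed, Rbm41 ran from 0.480 to 2.72 FPKM. Reads of near-identical copies, such as those of Rbm12b1 and Rbm12b2, of Rbm4 and Rbm4b, and of Hnrnpa1 and its pseudogenes, may have been split by the counting, so these values are uncertain.

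**Figure D1:**
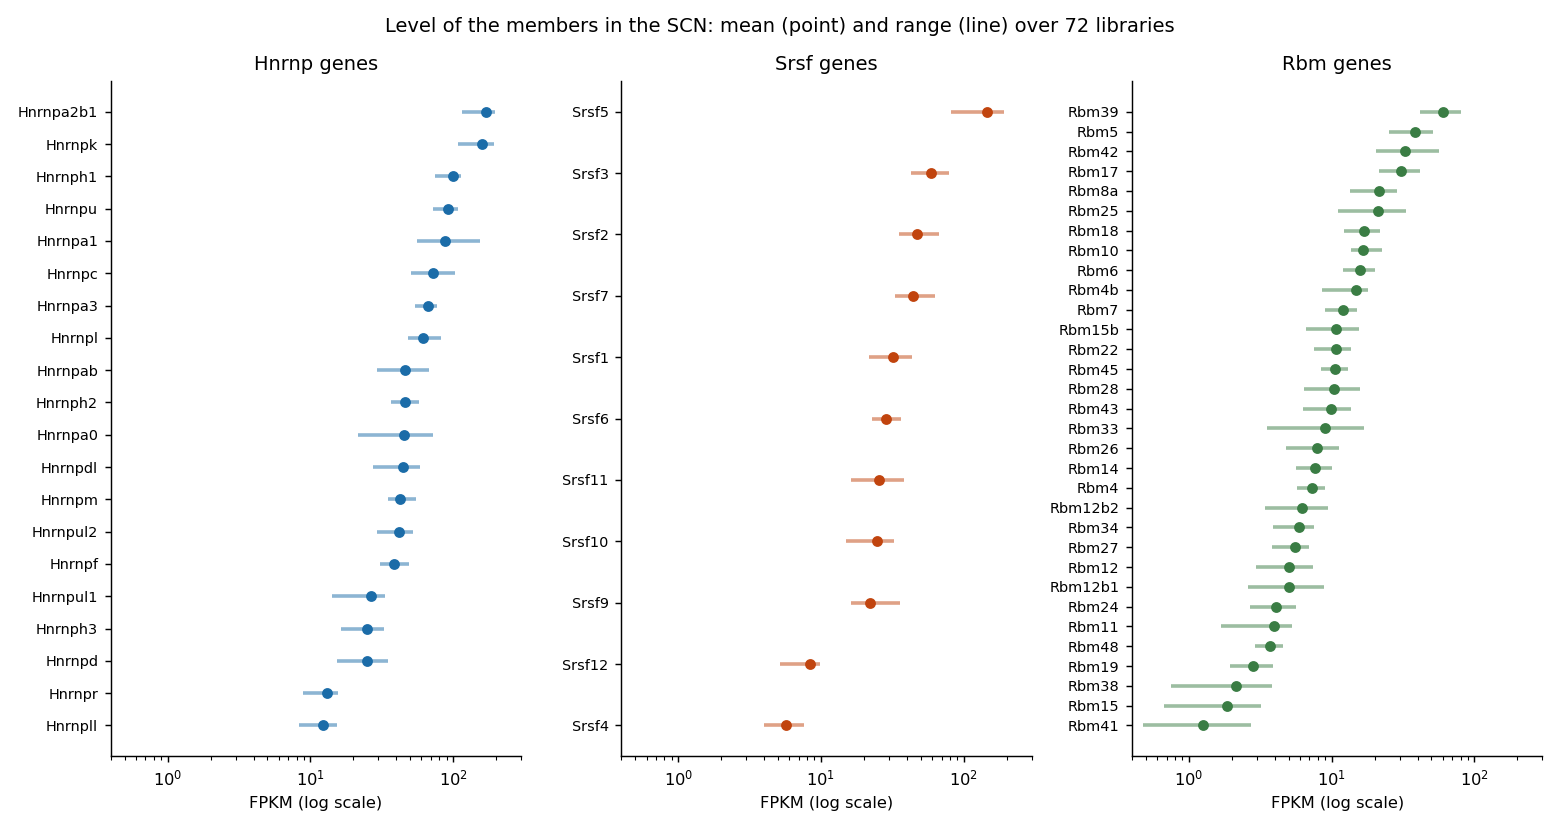
Mean (point) and range (line) of FPKM on a log axis over the 72 libraries for the 63 members whose mean reached 0.5 FPKM, by family. Hnrnp genes ran from a mean of 12.3 to 171 FPKM, Srsf genes from 5.70 to 146 FPKM and Rbm genes from 1.25 to 60.7 FPKM.

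A daily rhythm in LD was seen in members with peaks both by day and by night. By JTK_CYCLE, a rank test for a wave of 24 h, at p under 0.05, 14 of the 63 members (22.2%) were called in Ctrl LD, where 10.9% of all genes tested were. In -Trp LD 19 of 63 (30.2%) were called, where 11.1% of all genes were. By family these were 6 Hnrnp, 1 Srsf and 7 Rbm genes in Ctrl LD, and 6, 3 and 10 in -Trp LD. With the columns as named, 41 members were called in Ctrl LD and 2 in -Trp LD, so the counts depend on the placing of the columns. These calls used FPKM as deposited, and on FPKM scaled by the median of ratios 19 members were called in each LD group. The size of the waves was small: the median amplitude (from the mean to the peak of a fitted cosine, on the log2 scale) over the members was 0.08 in Ctrl LD and 0.10 in -Trp LD, as over all genes (0.08 and 0.10). After Benjamini-Hochberg adjustment over all genes, 3 members remained called in Ctrl LD (Hnrnpc, Hnrnpdl and Srsf5) and 7 in -Trp LD.

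The called members split evenly between day and night. In Ctrl LD the fitted peaks of 7 fell between 0 and 12 h and those of 7 between 12 and 24 h, and in -Trp LD of 10 and 9. Called members were 24 in at least 1 LD group and 9 in both, or 64.3% of those called in Ctrl LD and 47.4% of those called in -Trp LD, where the shares over all genes were 34.9% and 34.2%. The 9 were Srsf5, Hnrnpdl, Rbm45, Rbm38, Hnrnpc, Hnrnpm, Rbm14, Rbm4 and Rbm28. Among these 9 the fitted peaks on the diets lay a median of 1.11 h apart and at most 3.59 h (Rbm4), on samples taken every 4 h.

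**Figure D2:**
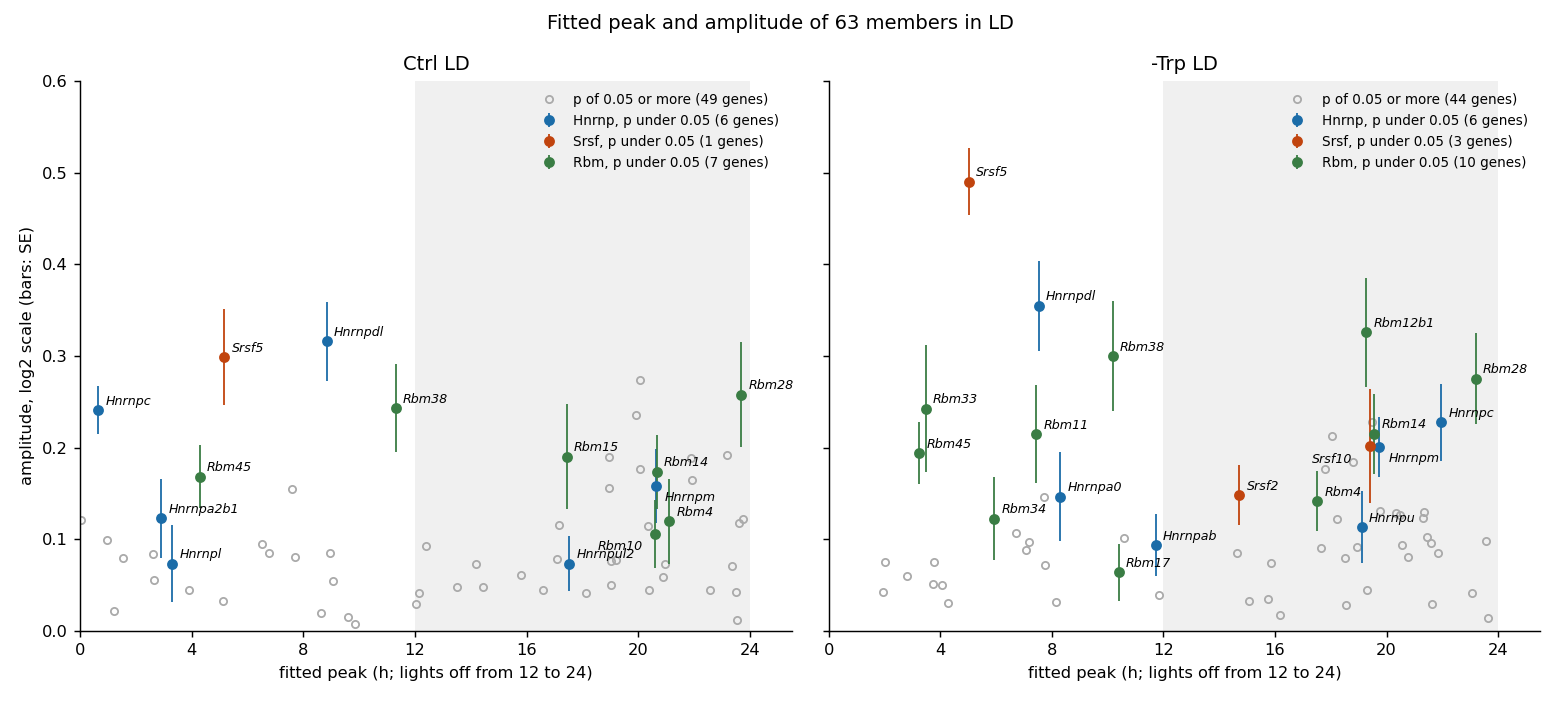
Fitted peak time (h, shaded when lights were off) and amplitude on the log2 scale, of the 63 members in Ctrl LD (left) and -Trp LD (right). Filled points, coloured by family and with bars for the standard error, are members called by JTK_CYCLE, and open grey points the others. Srsf5 reached an amplitude of 0.30 in Ctrl LD and 0.49 in -Trp LD, and called members lay on both sides of 12 h.

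Srsf5, an SR protein that promotes exon inclusion, was high in the morning and low at night. In Ctrl LD it measured 162, 150.1 and 153 FPKM at 4 h and 105, 82.4 and 92.5 FPKM at 16 h. In -Trp LD it measured 163, 161 and 173 FPKM at 4 h and 94.2, 84.1 and 81.3 FPKM at 20 h. The libraries of the high and low times did not overlap on either diet. Here and for Hnrnpdl, Rbm45 and Rbm28 below, these times had the highest and lowest means of the same values. Lack of overlap between them therefore describes the values and tests nothing. Its fitted peak was at 5.16 h with an amplitude of 0.30 ± 0.05 (SE, 18 libraries) in Ctrl LD and at 5.03 h with 0.49 ± 0.04 in -Trp LD. In DD its means stayed between 160 and 177 FPKM on Ctrl and between 159 and 180.2 FPKM on -Trp, above every LD mean other than that at 4 h in -Trp LD (166 FPKM).

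Hnrnpdl, an hnRNP that controls its own splicing through a decay-prone isoform, peaked later in the day. In Ctrl LD it measured 54.0, 49.6 and 51.3 FPKM at 8 h and 33.8, 35.1 and 30.1 FPKM at 20 h. In -Trp LD it measured 58.7, 54.0 and 45.2 FPKM at 8 h and 28.4, 27.3 and 32.4 FPKM at 20 h. The lowest library at 8 h was above the highest at 20 h on both diets, with fitted peaks at 8.83 and 7.53 h and amplitudes of 0.32 ± 0.04 and 0.35 ± 0.05.

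Rbm45, an RNA-binding protein of neurons whose promoter holds the heat shock element shown above, had a smaller wave. It measured 12.6, 11.7 and 12.1 FPKM at 4 h and 10.1, 9.62 and 9.21 FPKM at 16 h in Ctrl LD. In -Trp LD the values were 13.0, 12.5 and 12.9 FPKM at 4 h and 9.81, 9.06 and 9.67 FPKM at 16 h. High and low libraries did not overlap, and the fitted peaks were at 4.29 and 3.23 h. Rbm38, an RNA-binding target of p53, was low throughout but changed from 1.93 ± 0.20 FPKM (SD, n = 3) at 0 h to 3.12 ± 0.17 FPKM at 12 h in Ctrl LD, and from 1.98 ± 0.41 FPKM at 20 h to 3.48 ± 0.36 FPKM at 12 h in -Trp LD.

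Hnrnpc, which binds U-rich tracts and keeps cryptic exons out of mRNA, ran the other way. In Ctrl LD it measured 96.0, 99.3 and 99.8 FPKM at 0 h and 70.6, 69.1 and 71.2 FPKM at 12 h. In -Trp LD its mean was highest at 20 h (98.1, 92.5 and 97.0 FPKM) and lowest at 12 h (71.0, 64.2 and 70.6 FPKM). Its highest single library in -Trp LD (103 FPKM) was at another time. It stood first among all 14199 genes tested in Ctrl LD by JTK_CYCLE, with a fitted peak at 0.65 h against 22.0 h in -Trp LD. Hnrnpm, a regulator of alternative exons, was highest at 16 h in Ctrl LD (49.6 ± 2.47 FPKM, SD, n = 3) and at 20 h in -Trp LD (51.3 ± 3.29 FPKM), and lowest at 12 h (38.5 ± 1.76 FPKM) and 8 h (38.6 ± 1.81 FPKM).

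Rbm28, a nucleolar protein tied to spliceosomal small RNAs, measured 11.5, 9.88 and 10.1 FPKM at 0 h and 6.81, 7.23 and 6.87 FPKM at 12 h in Ctrl LD. On -Trp it measured 11.5, 12.3 and 9.74 FPKM at 0 h and 7.17, 7.08 and 7.96 FPKM at 8 h. Its high and low libraries did not overlap on either diet. Rbm14 and Rbm4, which lie next to each other on chromosome 19, had fitted peaks at 20.7 and 21.1 h in Ctrl LD and at 19.6 and 17.5 h in -Trp LD. Rbm14, a coactivator found in nuclear paraspeckles, measured 6.63 ± 0.20 FPKM (SD, n = 3) at 12 h and 8.63 ± 0.93 FPKM at 20 h in Ctrl LD.

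**Figure D3:**
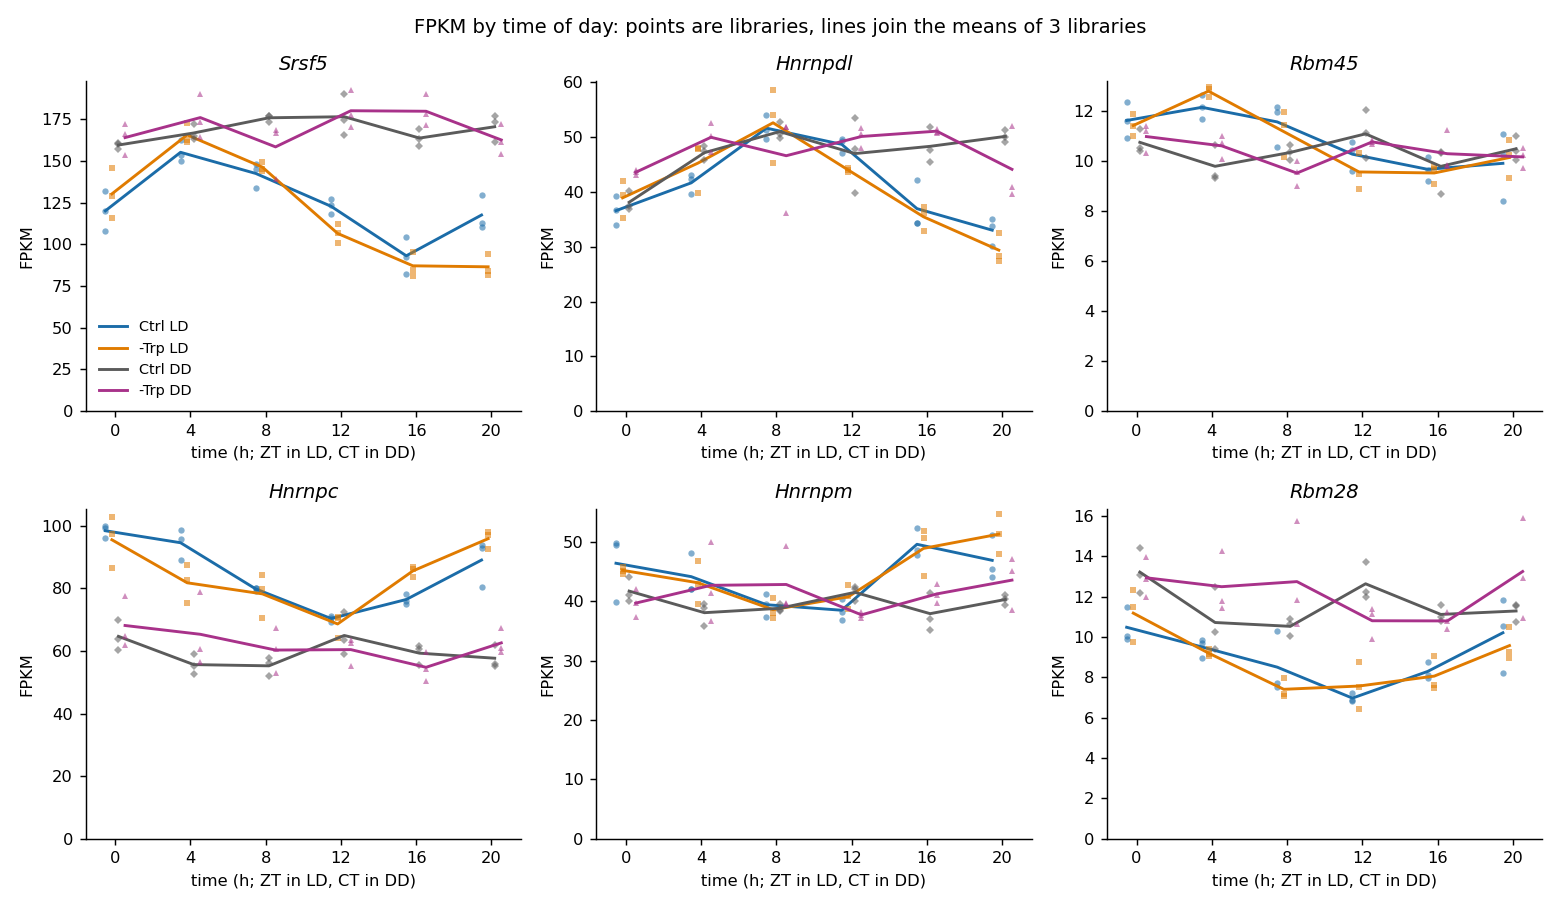
FPKM at 6 time points of 6 members called in both LD groups, with a point per library (moved slightly sideways by group) and lines through the means of 3 libraries. Srsf5, Hnrnpdl and Rbm45 were higher by day and Hnrnpc, Hnrnpm and Rbm28 near 0 h or at night in both LD groups, and 5 of the 6 were called in neither DD group (Srsf5 was called in Ctrl DD).

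The others of these 24 were called on 1 diet and not on the other, which does not show that the diets differ. In Ctrl LD these included Hnrnpa2b1, which ran from 182 ± 11.2 FPKM (SD, n = 3) at 0 h to 143 ± 24.3 FPKM at 20 h. In -Trp LD they included Srsf2, with 55.5 ± 2.64 FPKM at 16 h and 45.6 ± 3.02 FPKM at 4 h, and Srsf10, which represses splicing when dephosphorylated, with 24.5 ± 1.97 FPKM at 16 h and 17.7 ± 3.24 FPKM at 12 h. In Ctrl LD, Srsf2 and Srsf9 had fitted amplitudes of 0.12 and 0.10 and were not called.

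In the test of the difference itself, no rhythm differed between the diets in LD. The limma comparison of fitted waves (Benjamini-Hochberg adjusted p under 0.05) called 0 members and 0% of all genes, and at an unadjusted p under 0.05 it gave 3 members, Hnrnpc, Srsf5 and Srsf12, against 3.21% of all genes. The difference of waves, as an amplitude on the log2 scale, was 0.16 for Hnrnpc and 0.19 for Srsf5 (limma, adjusted p = 0.99967 for both). With the columns as named, 36 members were called.

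Fewer members were called in DD than in LD. The share of all genes called was lower too, and so was the count of clock genes given at the end. With almost none called in DD, those clock genes gave no check of the times placed there. In Ctrl DD 6 of 63 members were called by JTK_CYCLE (9.52%, against 6.62% of all genes) and in -Trp DD 3 (4.76%, against 1.81% of all genes), of which 0 were Hnrnp genes. The columns as named gave 26 and 15 members. Under Benjamini-Hochberg adjustment 0 members were called in either group. The median amplitude over the members was 0.05 in Ctrl DD and 0.04 in -Trp DD, against 0.07 and 0.06 over all genes. Fitted amplitudes were larger in LD than in DD for 47 of 63 members on Ctrl, where 54.99% of all genes showed this, and for 52 of 63 on -Trp, where 74.8% did. Of the members not called, Hnrnpdl in Ctrl DD had its highest and lowest times near those in LD (51.0 FPKM at 8 h and 38.1 FPKM at 0 h). In -Trp DD it was highest at 16 h (51.1 FPKM) and lowest at 0 h (43.6 FPKM). Hnrnpc had times near those in LD in -Trp DD (68.1 FPKM at 0 h and 54.8 FPKM at 16 h). In Ctrl DD it was highest at 12 h (64.9 FPKM), its lowest time in LD, and lowest at 8 h (55.2 FPKM). Without the library that stood apart at CT12 in Ctrl DD 8 members were called there, and without that at CT4 in -Trp DD 4 were called there.

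The smallest p-values in Ctrl DD belonged to Rbm15, Srsf11 and Rbm15b. Rbm15, which recruits the m6A writer complex to RNA, measured 2.73, 2.72 and 2.89 FPKM at 4 h and 2.04, 1.98 and 2.17 FPKM at 12 h. Its paralog Rbm15b ran from 9.17 ± 0.39 FPKM (SD, n = 3) at 0 h to 7.85 ± 0.70 FPKM at 16 h. In -Trp DD they were Srsf11, Rbm25 and Rbm34, the last with 6.18 ± 0.49 FPKM at 4 h and 5.03 ± 0.73 FPKM at 20 h.

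Srsf11, an SR-related protein that acts on neuronal microexons (chr3:158010473-158036639, minus strand), was the 1 member called in both DD groups, with opposite times. In Ctrl DD its 9 libraries from 0 to 8 h lay between 25.1 and 29.4 FPKM (median 27.4 FPKM) and its 9 from 12 to 20 h between 30.7 and 34.9 FPKM (median 32.9 FPKM). In -Trp DD the 9 libraries from 0 to 8 h lay between 31.3 and 38.3 FPKM (median 34.8 FPKM) and those from 12 to 20 h between 26.00 and 29.996 FPKM (median 27.3 FPKM). Within each diet the early and late libraries did not overlap, and the order of the levels was reversed between the diets. The split into early and late was made for this gene, so the lack of overlap describes its values and tests nothing. The fitted waves differed between the diets by 0.39 on the log2 scale (limma, adjusted p = 0.000464). It was the 1 member called, where 0.0345% of all genes were called. The columns as named gave 17 members.

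The 18 libraries with high Srsf11 stand side by side in the order of columns along which the shift runs. In these, the sum of FPKM had medians of 329255 (Ctrl DD, late) and 336574 (-Trp DD, early), against 327253 and 347651 in the others. Relative depth had medians of 1.01 and 0.986 against 1.07 and 1.07, and the summed oligodendrocyte markers had medians of 1382 and 1045 FPKM against 1182 and 1029 FPKM. The summed SCN markers had medians of 404 and 428 FPKM against 404 and 406 FPKM. The part of these values in the Srsf11 result was not tested. In a single fit of all 72 libraries, Srsf11 had an adjusted p of 0.0910.

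Rbm25, a spliceosomal protein that binds exon enhancers, had the same order of medians, with 25.4 FPKM early and 28.3 FPKM late in Ctrl DD and 28.8 FPKM early and 23.3 FPKM late in -Trp DD. Its libraries overlapped in both groups, and its waves differed by 0.25 on the log2 scale with an adjusted p of 0.359. Without replicate 2 at CT4 in -Trp DD, in which Rbm25 measured 23.2 FPKM, the adjusted p was 0.0170, and with FPKM as deposited it was 0.0467.

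**Figure D4:**
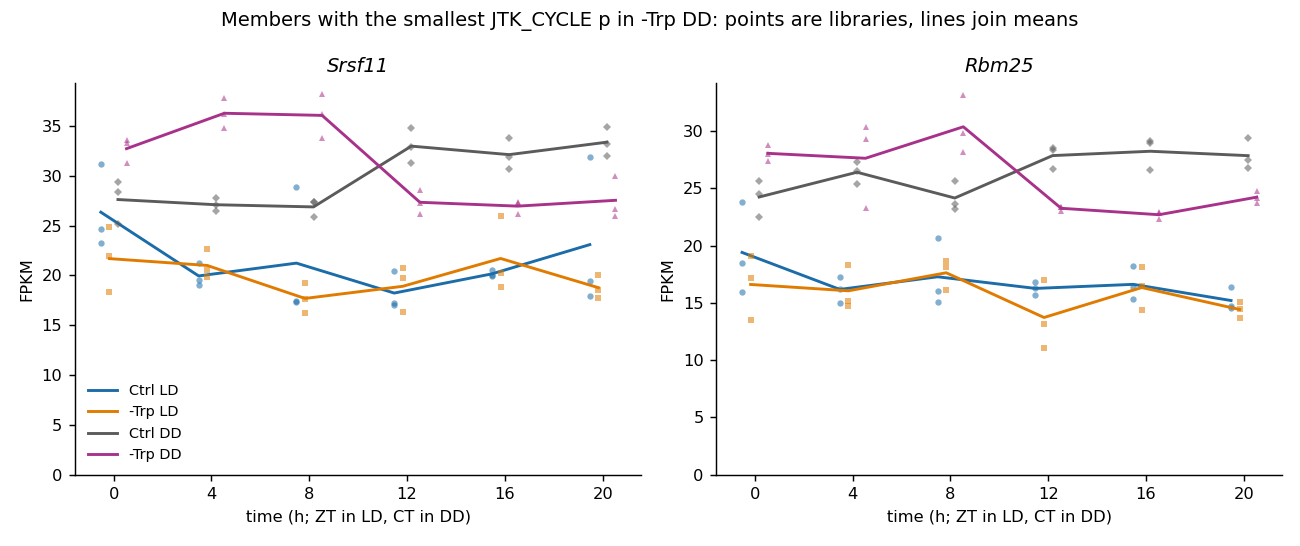
FPKM of Srsf11 and Rbm25 at 6 time points, with a point per library (moved slightly sideways by group) and lines through the means of 3 libraries. In DD, Srsf11 was high from 12 to 20 h on Ctrl (30.7 to 34.9 FPKM) and from 0 to 8 h on -Trp (31.3 to 38.3 FPKM), above both LD groups' means.

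Between light schedules on -Trp, the wave of Srsf5 differed by 0.54 on the log2 scale (limma, adjusted p = 3.02e-07), the 1 member called, where 0.0278% of all genes were called. On Ctrl 0 members were called, where 0.0832% of all genes were, and 16 members had an unadjusted p under 0.05 against 14.7% of all genes. For the columns as named these counts were 48 on Ctrl and 1 on -Trp. In the order used here, Srsf5 had on Ctrl a difference of 0.28 (adjusted p = 0.0643) and Hnrnpc of 0.26 (adjusted p = 0.0795). Srsf5 was called on Ctrl in a single fit of all libraries (adjusted p = 0.0386), with FPKM as deposited (adjusted p = 0.0329), and without replicate 3 at ZT0 (adjusted p = 0.0474), replicate 1 at ZT20 (0.0381) or replicate 2 at ZT20 (0.0252) in Ctrl LD. Hnrnpc was called with FPKM as deposited (adjusted p = 0.0401), without replicate 2 at ZT20 in Ctrl LD (0.0397) and without replicate 1 at CT0 in Ctrl DD (0.0486).

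By the order of columns used here, the level of few members differed between diets. Averaged over the day in LD, 0 members were called higher on -Trp (0.563% of all genes) and 0 lower (0.542% of all genes). The differences over the 63 members ran from -0.08 to 0.12 on the log2 scale. The smallest p-values were those of Rbm15b, with 12.8 ± 1.22 FPKM (SD, n = 18) in Ctrl LD and 13.6 ± 0.97 FPKM in -Trp LD (limma, difference 0.10 ± 0.03 SE on the log2 scale, adjusted p = 0.138), and Rbm19, a nucleolar protein, with a difference of 0.09 ± 0.04 (adjusted p = 0.290). Both sets of libraries overlapped. With the columns as named, 44 members differed in LD, and Rbm15b and Rbm19 were lower on -Trp.

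In DD 9 members rose on -Trp (14.3% of 63, against 7.25% of all genes) and 0 fell (against 6.19%). The 9 were 6 Rbm, 2 Srsf and 1 Hnrnp gene, by 1.07- to 1.13-fold. By sign alone 43 of 63 members were higher on -Trp, against 54.0% of all genes. The median difference over the members was 0.03 on the log2 scale, against 0.01 over all genes.

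Rbm48, a subunit of the minor spliceosome, ranged from 2.91 to 3.96 FPKM in Ctrl DD (median 3.39 FPKM) and from 3.28 to 4.36 FPKM in -Trp DD (median 3.89 FPKM). The groups overlapped, but its mean was higher on -Trp at 6 of 6 time points, and the difference was 0.17 ± 0.04 on the log2 scale (limma, adjusted p = 0.00391). Srsf7, an SR protein with a zinc knuckle that also shapes 3′ end choice, ranged from 34.1 to 50.1 FPKM (median 42.2 FPKM) and from 42.0 to 55.9 FPKM (median 47.4 FPKM), a difference of 0.17 ± 0.05 (adjusted p = 0.0177), again at 6 of 6 time points. Rbm12b2 and Rbm4b, each with a close paralog, differed by 0.17 ± 0.06 (adjusted p = 0.0461) and 0.16 ± 0.05 (adjusted p = 0.0321). The other called members were Hnrnph1, Rbm18, Srsf3, Rbm5 and Rbm39, with differences between 0.10 and 0.14, named after their values were seen. The call of Rbm12b2 was lost in 23 of 36 fits without 1 library. By column name, 44 members differed in DD, and Rbm48, Srsf7, Rbm12b2 and Rbm4b were lower on -Trp.

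Whether the diet acted on the level alike in DD and LD was tested in 1 fit. The diet effect in DD minus that in LD passed for 3 of 63 members (4.76%, against 7.69% of all genes). These were Rbm48 (0.18 ± 0.05 on the log2 scale, limma adjusted p = 0.0234), Srsf7 (0.23 ± 0.07, adjusted p = 0.0462) and, in the other direction, Rbm15b (-0.16 ± 0.05, adjusted p = 0.0309). By column name, 49 members passed, and these 3 had the opposite sign. The count was between 1 and 8 without 1 library, and the call of Srsf7 was lost in 41 of 72 such fits, among them those without replicate 1 at CT12 in Ctrl DD (adjusted p = 0.0577) and without replicate 3 at ZT20 in -Trp LD (adjusted p = 0.0595).

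The light schedule went with the largest differences. On Ctrl 26 of 63 members were higher in DD (41.3%, where 37.8% of all genes were called higher) and 24 lower (38.1%, where 41% were called lower). On -Trp 31 were higher (49.2%, where 37.8% of all genes were) and 20 lower (31.7%, where 41.7% were). The diets share no libraries in these comparisons, but on both the light schedule cannot be told apart from the difference in the sum of FPKM. On both diets 26 members were higher and 19 lower, with 0 in opposite directions. These are 41.3% and 30.2% of the members, where 33.3% and 36.8% of all genes were higher or lower on both and 0.293% were called in opposite directions. By family on Ctrl, 6 of 11 Srsf genes were higher and 3 lower, 5 of 20 Hnrnp genes higher and 10 lower, and 15 of 32 Rbm genes higher and 11 lower. By column name 6 members were called on Ctrl and 48 on -Trp, where the 8 members named for -Trp had the opposite sign.

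Rbm33 had the largest rise. In Ctrl LD it ranged from 4.10 to 7.26 FPKM (median 4.67 FPKM) and in Ctrl DD from 10.1 to 14.1 FPKM (median 13.0 FPKM), with no overlap, a difference of 1.40 ± 0.06 on the log2 scale (2.63-fold, limma, adjusted p = 2.27e-19). On -Trp it ranged from 3.52 to 6.75 FPKM in LD and from 9.18 to 16.9 FPKM in DD, a difference of 1.43 ± 0.08 (adjusted p = 9.64e-17). Rbm15 (0.90 on Ctrl and 0.81 on -Trp) and Rbm25 (0.75 and 0.80) were among the next on both diets, with Rbm26 (0.80), a zinc finger protein of nuclear RNA decay, on Ctrl and Rbm41 (0.82), which binds minor spliceosome RNA, on -Trp.

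Hnrnpa0, an hnRNP that binds AU-rich elements, fell most. It ranged from 49.7 to 68.7 FPKM (median 55.8 FPKM) in Ctrl LD and from 26.0 to 44.02 FPKM (median 33.1 FPKM) in Ctrl DD, with no overlap, a difference of -0.70 ± 0.05 (adjusted p = 1.14e-13). Hnrnpab, which binds RNA for dendritic transport, differed by -0.56 ± 0.03 on Ctrl and -0.64 ± 0.04 on -Trp, and Rbm42 by -0.56 and -0.63. Rbm8a, the Y14 subunit of the exon junction complex, fell by 0.45 on Ctrl, and Rbm15b fell by 0.62 on -Trp.

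Summed markers of some other cells differed between the light schedules as well. These are FPKM as deposited, and the sum of all FPKM also differed between the schedules. The summed oligodendrocyte markers (5 of 5 above the floor) ran from 1663 to 2974 FPKM in Ctrl LD and from 949.7 to 2980 FPKM in Ctrl DD, with medians of 2118 and 1331 FPKM, and on -Trp the medians were 1961 and 1037 FPKM. Neuron markers had medians of 972 and 674 FPKM on Ctrl and 993 and 645 FPKM on -Trp, and Oxt, the oxytocin gene of magnocellular neurons, 1744 and 526 FPKM and 1340 and 707 FPKM. Astrocyte markers had medians between 365 and 406 FPKM in all 4 groups. Oligodendrocyte precursor markers were higher in DD, with medians of 11.5 and 14.5 FPKM on Ctrl and 12.2 and 14.4 FPKM on -Trp. SCN neuron markers were lower in DD on Ctrl (534 and 404 FPKM) and higher in DD on -Trp (366 and 413 FPKM). The part of these cells in the light comparison was not tested.

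**Figure D5:**
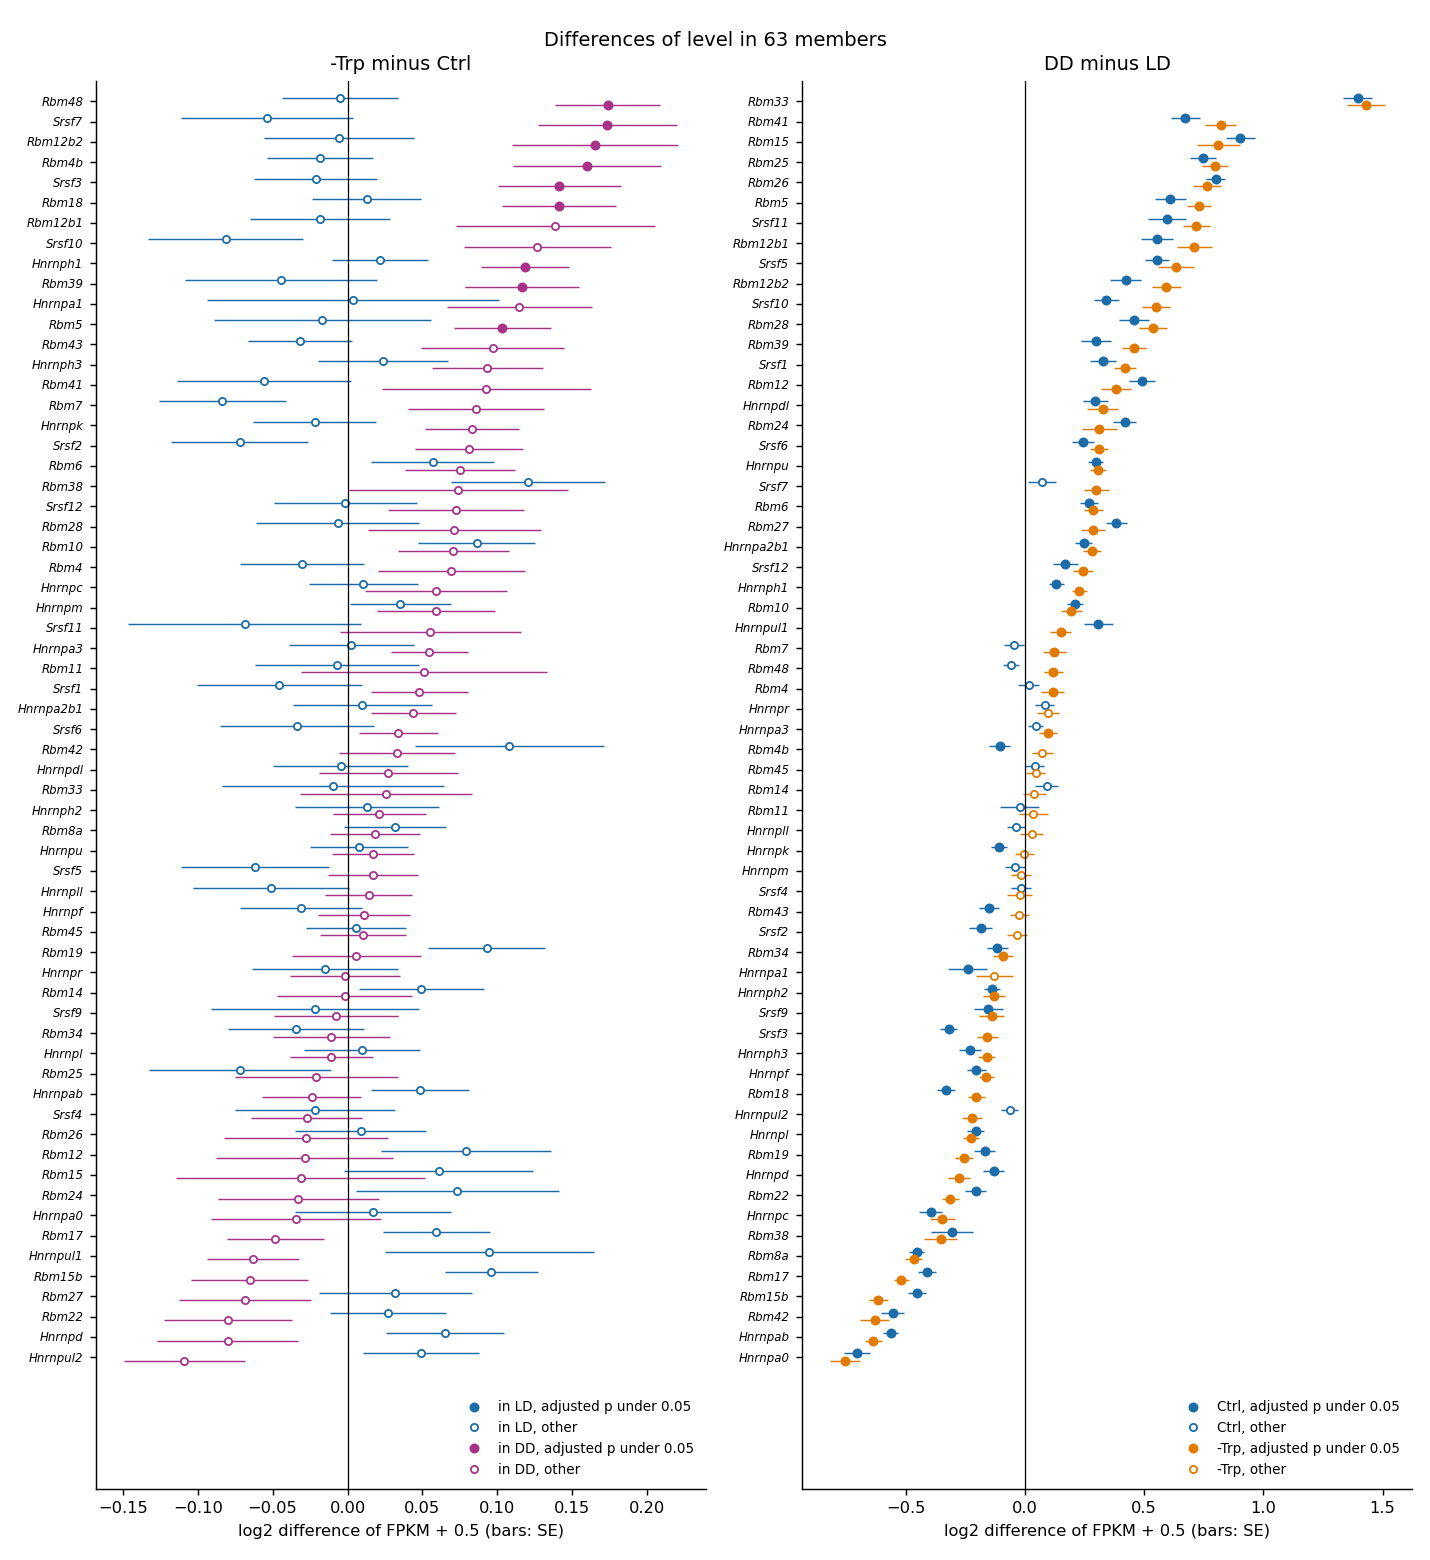
Log2 differences of level with bars for the standard error in the 63 members, for -Trp minus Ctrl (left, in LD and in DD) and DD minus LD (right, on each diet), with filled points for an adjusted p under 0.05 and members ordered by the difference in DD (left) or on -Trp (right). Diet differences lay between -0.11 and 0.17, and light differences between -0.76 and 1.43.

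Other genes of splicing, in lists written from general knowledge, were counted in the same tables. Of 51 other spliceosome and SR-related genes, 11 were called rhythmic in LD on Ctrl and 9 on -Trp, where 10.9% and 11.1% of all genes were. In DD 1 was called on Ctrl and 2 on -Trp, where 6.62% and 1.81% of all genes were. Among those of the 51 with the smallest p-values in Ctrl LD were Tra2a, an SR-like splicing activator with a fitted peak at 21.7 h and an amplitude of 0.37, and Ewsr1, an RNA-binding protein (7.88 h, 0.14). Of the 11 SR protein kinases and import factors, 2, 2, 1 and 1 were called in the same order of groups, of 26 neuronal splicing regulators 4, 3, 5 and 1, and of 10 nonsense-mediated decay factors 1, 0, 1 and 1. In DD against LD on Ctrl, 10 of the 11 kinases and import factors were higher and 1 lower. In that comparison 37.8% of all genes were called higher and 41% lower.

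The median amplitude of 16 heat shock genes was 0.17 in Ctrl LD and 0.24 in -Trp LD, where that of the members was 0.08 and 0.10. Of these genes 7 were called in LD on Ctrl and 10 on -Trp, and in DD 0 on Ctrl and 1 on -Trp, among them in Ctrl LD the chaperone gene Chordc1 (21.0 h, amplitude 0.47), Hspa1b (19.1 h, 0.79) and Hsph1 (21.7 h, 0.29). The shares over all genes in these groups were 10.9%, 11.1%, 6.62% and 1.81%. Cirbp and Rbm3, the cold-inducible genes, were called in both LD groups and in 0 DD groups, with fitted peaks at 10.5 and 13.0 h in Ctrl LD and at 8.81 and 10.7 h in -Trp LD. Their amplitudes, 0.45 and 0.63 in Ctrl LD, were above those of all 63 members, of which the largest was 0.32 (Hnrnpdl). Of 16 heat shock genes, 12 were lower and 1 higher in Ctrl DD than in Ctrl LD, where 41% of all genes were called lower and 37.8% higher.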

How the data were processed

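RNA from dissected SCN of 72 mice was sequenced by the authors with a stranded mRNA kit. The authors trimmed reads with Trimmomatic, aligned them to mm10 with TopHat and computed FPKM with Cufflinks, and the deposited tables hold FPKM per gene (versions are not given in the sources used here). FPKM gives no number of reads, but steps of single fragments in low values put the relative depth of the libraries between 0.70 and 1.24 times the median.

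Columns were placed in groups by the order of a supplementary table of the study. Daily rhythms were called with JTK_CYCLE (period 24 h, Bonferroni over 6 lags, p under 0.05), written anew in Python 3.11.15 (numpy 2.4.6, scipy 1.17.1), for genes whose mean reached 0.5 FPKM. JTK_CYCLE used FPKM as deposited, without the scaling that follows. FPKM values were scaled by the median of ratios over all libraries, and cosine waves and levels were then fitted to log2(FPKM + 0.5) with limma 3.58.1 (R 4.3.3), with time of day as a factor for levels and Benjamini-Hochberg adjustment over all genes, so fold changes of low genes are understated. JTK_CYCLE and the limma fits of waves and levels, within a group or between a pair of groups, were tested on simulated data. The fits over all libraries and the other steps were not. The limma p-values rest on the spread of libraries, each of a single mouse, around the fitted wave or level. For waves this spread also holds departures from a cosine. In the light comparisons it does not part the light schedule from the difference in the sum of FPKM. Those of JTK_CYCLE come from ranks.

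Members, lists and tests were chosen with earlier results of these data known. Named are, in each family, the 3 highest genes and the 3 with the smallest p in each LD group, over all members the 3 with the smallest p in each DD group, called rhythm differences, the 4 largest rises and falls of level called in each comparison (or, with none called, the 2 smallest p), and the 3 smallest p of 2 other lists, of which 1 gene is not reported here. Alternatives were the columns as named, other pseudocounts, filters, scalings and fits, a replicate block, and leaving out each library. The test of diet effects between DD and LD was added after the data were seen. Gene positions are from GENCODE M21 (GRCm38) and promoters from RefSeq GRCm38.p6, where 61 of the member symbols had an entry. Figures were drawn with matplotlib 3.10.9.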

Additional observations from a re-analysis of the deposited data

Results flagged for a closer look

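Differences between groups under the same contrast, each by a test of the difference itself, were found for 5 values. The wave of Srsf11 differed between the diets in DD by 0.39 on the log2 scale (limma, adjusted p = 0.000464), and that of Srsf5 differed between LD and DD on -Trp by 0.54 (adjusted p = 3.02e-07). The diet effect on the level in DD minus that in LD was 0.18 for Rbm48 (adjusted p = 0.0234), 0.23 for Srsf7 (adjusted p = 0.0462) and -0.16 for Rbm15b (adjusted p = 0.0309). Single libraries within the groups of 3 were not tested for outlying values.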

How the results depend on the processing

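Placing the columns by their names changed most counts. Members called rhythmic were then 41 (Ctrl) and 2 (-Trp) in LD and 26 (Ctrl) and 15 (-Trp) in DD, rhythm differences 36 (diet, LD), 17 (diet, DD) and 48 (light, Ctrl), differences of level 44 (diet, LD), 44 (diet, DD) and 6 (light, Ctrl), and diet effects that differ between DD and LD 49. Directions turned under this placing for the diet in LD (Rbm15b -0.46, Rbm19 -0.21), the diet in DD (Rbm12b2 -0.44, Rbm48 -0.12, Rbm4b -0.046, Srsf7 -0.21), the light schedule on -Trp (Hnrnpa0 0.70, Hnrnpab 0.55, Rbm42 0.59, Rbm15b 0.53, Rbm15 -0.80, Rbm25 -0.81, Rbm33 -1.30, Rbm41 -0.69) and the diet by light (Rbm15b 0.85, Rbm48 -0.12, Srsf7 -0.38). Rhythm calls, in LD on Ctrl and -Trp and then in DD on Ctrl and -Trp, were 3, 7, 0 and 0 after Benjamini-Hochberg adjustment, 4, 10, 0 and 0 by a limma cosine fit, 4, 10, 0 and 0 with a pseudocount of 0.1, 3, 10, 0 and 0 with 1, and 3, 9, 0 and 0 with the replicate number as a block. By JTK_CYCLE on FPKM scaled by the median of ratios they were 19, 19, 5 and 4. With FPKM as deposited, rhythm differences were 2 (diet, DD) and 2 (light, Ctrl), and in 1 fit for all libraries 0 (diet, DD), 1 (light, Ctrl) and 2 (light, -Trp). Shares over all genes are not given for these settings, so the counts show only how far the calls depend on them. The causes were not tested.

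Without 1 library, rhythm calls ranged from 10 to 18 (Ctrl LD), 16 to 21 (-Trp LD), 3 to 9 (Ctrl DD, 3 without replicate 3 at CT0, replicate 1 at CT4 or replicate 3 at CT20 and 9 without replicate 1 at CT16) and 2 to 6 (-Trp DD, 6 without replicate 3 at CT8). Rhythm differences ranged from 0 to 0 (diet, LD), 1 to 2 (diet, DD), 0 to 3 (light, Ctrl, 3 without replicate 2 at ZT20 in LD) and 1 to 1 (light, -Trp). Differences of level ranged from 0 to 0 (diet, LD), 5 to 12 (diet, DD, 5 without replicate 1 at CT8 or replicate 2 at CT20 in Ctrl DD, or without replicate 2 at CT8, replicate 3 at CT12 or replicate 1 at CT20 in -Trp DD), 49 to 52 (light, Ctrl) and 49 to 52 (light, -Trp), and diet effects that differ between DD and LD from 1 to 8 (1 without replicate 3 at CT12 or replicate 1 at CT20 in -Trp DD, 8 without replicate 1 at CT0 in Ctrl DD). The correlation of same-numbered libraries around their time-point means was over 0.1 in 4 of 18 pairs (diet in LD, median -0.01), 12 (diet in DD, median 0.18), 4 (light on Ctrl, median -0.02) and 10 (light on -Trp, median 0.12), and 10, 23, 8 and 26 of 36 libraries correlated best with their own number. Not every pair passed 0.1 in any comparison, so the libraries were not treated as paired, though the numbers leaned together in 2 of the 4. The replicate block fits a shift for each number over all times, so it does not cover pairs within a time point. With the replicate block in the tests of differences, 0, 1, 0 and 1 rhythms and 0, 8, 50 and 50 levels differed (diet in LD, diet in DD, light on Ctrl, light on -Trp), and Rbm12b2 lost its call.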

Other observations

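Clock genes were counted in the same tables. Of 14, 9 were called rhythmic by JTK_CYCLE in LD on Ctrl and 5 on -Trp, and in DD 0 on Ctrl and 1 on -Trp. So few calls in DD leave the times placed there without a check by clock genes. Among all genes the shares called were 10.9% and 11.1% in LD and 6.62% and 1.81% in DD. Per1 had a fitted peak at 11.5 h, Nr1d1 at 7.09 h and Arntl at 23.2 h in Ctrl LD, and Nr1d1 at 7.44 h and Arntl at 22.4 h in -Trp LD.

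Of the markers of other cells, 2 of 4 endothelial genes, Cldn5 (fitted peak 0.51 h, amplitude 0.80) and Tek (0.21 h, 0.34), were called rhythmic in Ctrl LD and 0 of 4 in -Trp LD. Over all genes these shares were 10.9% and 11.1%. Of 5 oligodendrocyte markers, 0 were called in Ctrl LD and Mag alone in -Trp LD.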
